A study of Mus musculus with 27 samples.

Results

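ProT cells collected 24 h after 4-hydroxytamoxifen were compared with ProT cells collected 18 h after it, over all genes of 1 count table. ProT cells are a mouse T cell precursor line, and the labels describe TAL1 as induced in them by way of CreER and LoxP. The comparison used 6 of the 27 RNA sequencing libraries of the series, 3 at 24 h and 3 at 18 h, with the ProT libraries at 0, 6 and 12 h as context. The other libraries came from mouse thymus and were not used here. The title given by the submitters asks how TAL1, a transcription factor switched on in T cell acute lymphoblastic leukaemia, acts together with the PI3K/AKT pathway.

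All ProT libraries, those at 0 h included, came from cells that carry the inducible system. No ProT cells without 4-hydroxytamoxifen were analysed here at 18 h or 24 h, so time in culture, exposure to the drug and TAL1 cannot be told apart. The labels do not give a mouse strain or the number of clones for the line, and do not tell whether libraries of the same time are separate cultures. The p-values below therefore measure only the spread between these libraries, which may be technical. A lower count in bulk RNA can reflect fewer cells that express a gene or less RNA per cell, which cannot be told apart here.

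TAL1 is a basic helix-loop-helix factor that binds DNA together with E proteins and that also acts in blood stem cells and red cell precursors. Several of the programmes described below respond within hours or less. Immediate early genes are transcribed within minutes of a growth factor or stress signal, and their products include the inhibitors that end the response. Hypoxia-responsive genes are switched on by HIF factors when oxygen is short, and they move the cell from mitochondrial respiration to glycolysis. Cell cycle inhibitors and pro-death BCL2 proteins are held down in growing T cell precursors by cytokine and AKT signalling.

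Tal1 itself, the gene the labels call induced, had 2068, 2026 and 1963 CPM at 24 h, against 2149, 2233.5 and 2358 CPM at 18 h, where CPM is the count scaled to the size and composition of the library. Every 24 h library was below every 18 h library, but the log2 fold change of -0.15 ± 0.12 (SE) did not pass the test (edgeR adjusted p = 0.735). Over the course Tal1 averaged 3007 CPM at 0 h, 3229 at 6 h, 2088 at 12 h, 2247 at 18 h and 2019 at 24 h. The level at 24 h was thus below that at 0 h (log2 fold change -0.57 ± 0.12, edgeR adjusted p = 0.00172), which goes against a rise named in the labels. Whether the induced copy is of mouse sequence, and so counted here, was not given in the sources used here. The results are therefore given by the labelled time only.

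Depth was 4614643 to 6258268 counts in genes per library at 24 h and 4037467 to 5779420 at 18 h. Among markers of the T lineage, 12 of 13 had enough counts to be tested and none was called between the times. Their summed level was 2484 to 2545 CPM at 24 h and 2206 to 2394 CPM at 18 h, ranges that do not overlap. Il2ra, alone of these markers, was called higher in a fit of only these 6 libraries (log2 fold change 0.313, edgeR adjusted p = 0.0305). In that fit 0.909% of all genes were called higher. Il2ra also held the most counts of these markers, with 5202 to 7001 at 24 h and 3186 to 5045 at 18 h, so the sum leans on it. Other markers, such as Kit and Cd3g, had lower mean CPM at 24 h than at 18 h. Cd4 and Cd8a, which mark later thymocytes, were at 0 in all 6 libraries. Summed B cell markers stayed between 1.90 and 7.22 CPM, with Pax5 and Ms4a1 at 0, and stromal markers between 0 and 0.696 CPM, with Col1a2 and Pdgfra at 0. Summed myeloid markers came to 48.3 to 56.4 CPM at 24 h and 48.6 to 59.1 CPM at 18 h, and summed NK markers to 804 to 866 CPM at 24 h and 853 to 903 CPM at 18 h. The NK sum came mostly from Gzma (3085 to 4070 counts at 24 h) and Nkg7 (985 to 1186), while Ncr1 had 0 to 2 counts. Summed erythroid markers came to 75.5 to 93.8 CPM at 24 h and 79.4 to 93.8 CPM at 18 h, mostly from Hbb-bs (413 to 554 counts at 24 h). Summed endothelial markers came to 65.1 to 82.1 CPM at 24 h and 64.3 to 67.3 CPM at 18 h. That sum came almost wholly from Pecam1 (382 to 437 counts at 24 h), while Cdh5 had 0 and Kdr 4 to 5 counts at 24 h. Mitochondrial transcripts took 9.71% to 10.1% of gene counts at 24 h and 10.6% to 11.9% at 18 h, ranges that do not overlap (exact permutation test, two-sided, p = 0.1, the smallest that 3 against 3 allows). The part of this shift in the results was not tested.

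Only 22 of 13610 tested genes passed an edgeR adjusted p of 0.05 between 24 h and 18 h, or 0.162%. Most of them fell: 20 genes were lower at 24 h (0.147%) and 2 were higher (0.0147%). The genes with the largest falls were Egr1 and Ankrd37, and the genes that rose were Plk1 and Mthfd2. In each of the 22 genes the 3 libraries at 24 h lay wholly on one side of the 3 at 18 h. Such separation without overlap was common among all tested genes, with 1383 genes above (10.2%) and 1302 genes below (9.57%), so it was no mark of these genes. At an unadjusted p of 0.05, 568 genes were higher (4.17%) and 655 lower (4.81%), and the median log2 fold change over all tested genes was 0.00015.

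How many genes passed depended on the libraries that set the spread. With all 15 ProT libraries sharing 1 estimate, the biological coefficient of variation was 11.6%. Fitting only the 6 libraries at 24 h and 18 h gave 341 calls of 12980 genes (2.63%), with 118 higher (0.909%) and 223 lower (1.72%), and the 22 genes were all among them. Library 1 at 6 h stood apart from its group on the first principal component, at -1.07 against -33.3 and -30.0 for the other 6 h libraries. Leaving it out, an alternative chosen after seeing the data, gave 54 calls (0.390%), 7 higher (0.0506%) and 47 lower (0.340%). Leaving out 1 of the 6 libraries at 24 h and 18 h gave from 1 to 27 calls. Only Egr1 of the 22 genes passed in all 6 of these fits. Ankrd37, Bnip3, Il10ra, Nab2 and Zfp36 passed in 3 of 6, another 6 genes (Gp49a, Junb, Kdm3a, Pde4b, Pdk1 and Plk1) in 2, 9 genes in 1 and Mthfd2 in none. Those 9 genes were Bcl2l11, Cdkn1b, Crebrf, Cysltr1, Ddit4, Klhl24, Mt2, Tiparp and Upp1. With library totals in place of scaling factors, Egr1, Ankrd37, Bnip3, Il10ra, Nab2 and Zfp36 were the only ones called.

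**Figure D1:**
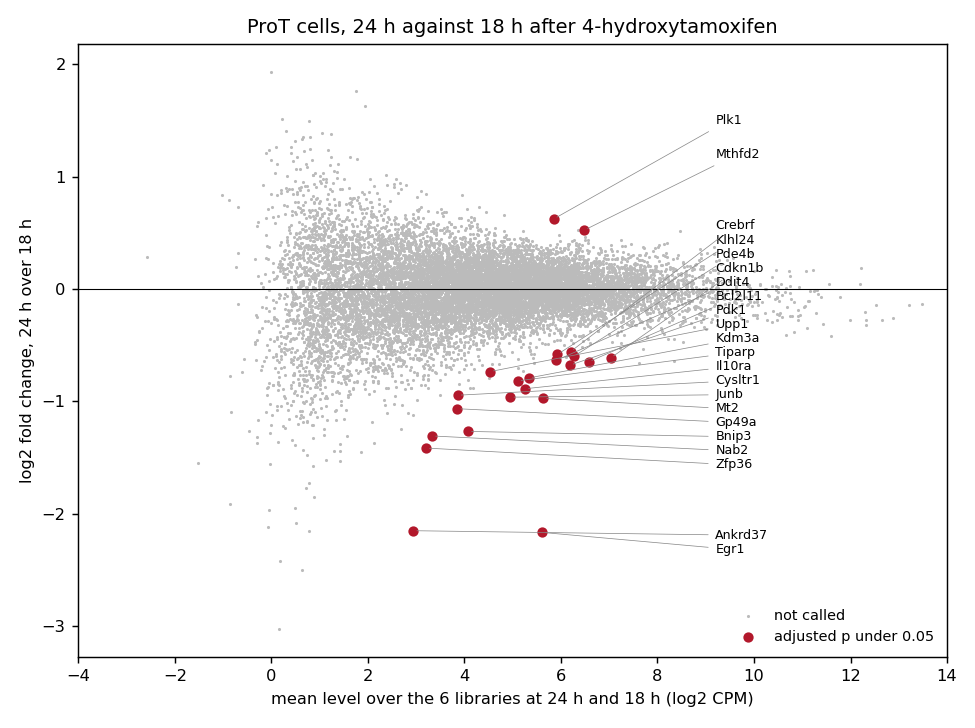
Log2 fold change of each tested gene, 24 h over 18 h (vertical axis), against its mean level over the 6 libraries in log2 CPM (horizontal axis), with the 22 genes past an edgeR adjusted p of 0.05 in red. The red points lie mostly below 0, with Egr1 and Ankrd37 lowest and only Plk1 and Mthfd2 above.

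Among the immediate early genes was the called gene with the smallest adjusted p. Egr1 (chr18:34859823-34864984 in GENCODE M21 on GRCm38), a zinc finger factor induced through ERK signalling, fell at 24 h to 0.222 of its 18 h mean, and Zfp36 and Junb fell with it. Nab2, a co-repressor that EGR proteins induce and that in turn silences them, fell too, although it was not on the list. Of 23 listed immediate early genes, 18 had enough counts to be tested, 3 fell, none rose and 15 did not pass. Over all tested genes 0.147% fell and 0.0147% rose. The median log2 fold change of the 18 genes was -0.44, with 14 below 0 and 4 above, beside a median of 0.00015 over all tested genes. In the fit of the 6 libraries alone, 8 of 17 tested members were lower and 1 was higher, beside 1.72% and 0.909% of all genes in that fit.

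Egr1 had 15.8, 22.6 and 14.6 CPM at 24 h, against 58.2, 85.1 and 96.2 CPM at 18 h. The lowest 18 h library was thus well above the highest 24 h library, and the log2 fold change was -2.17 ± 0.20 (SE; edgeR adjusted p = 3.07e-07). The 18 h level was itself a peak: Egr1 averaged 4.96 CPM at 0 h, 5.34 at 6 h, 1.59 at 12 h, 79.8 at 18 h and 17.7 at 24 h. At 24 h it was still above 0 h (log2 fold change 1.83 ± 0.29, edgeR adjusted p = 0.000114).

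Zfp36 (chr7:28376784-28380253) encodes tristetraprolin, which binds AU-rich elements and speeds the decay of cytokine and immediate early mRNAs. It had 5.06, 5.21 and 4.67 CPM at 24 h, against 11.2, 16.3 and 12.9 CPM at 18 h. The groups did not overlap, and the log2 fold change was -1.41 ± 0.24 (edgeR adjusted p = 0.00593). Its promoter is shown because both motifs named here are known controls of immediate early genes: the CArG box, bound by serum response factor, and an EGR site, here GCGNGGGCG. The 300 bases run from 250 bases before to 50 bases after the RefSeq start on GRCm38.p6 (chr7:28379179-28379478, minus strand, 5′ to 3′), with matches on either strand in capitals.
Zfp36: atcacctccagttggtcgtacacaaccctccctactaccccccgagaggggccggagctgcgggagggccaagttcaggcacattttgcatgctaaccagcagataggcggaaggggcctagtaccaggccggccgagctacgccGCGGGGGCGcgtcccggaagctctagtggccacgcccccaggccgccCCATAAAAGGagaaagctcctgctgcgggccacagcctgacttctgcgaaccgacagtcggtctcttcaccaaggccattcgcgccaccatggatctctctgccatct
Of 32851 mouse promoters of the same length, 5.6% held the EGR motif and 1.6% a CArG box. Among the called genes, 17 had a promoter in the RefSeq table, of which 3 held the EGR motif and 1, Zfp36, the CArG box. The RefSeq start lies 1025 bases from the GENCODE gene start for Zfp36 and 5857 bases for Ankrd37. It also lies far from it for Nab2 (1865 bases), Mthfd2 (8304) and Pde4b (334012), which enter the counts of motifs too. A match is a description of the letters and says nothing about binding in these cells.

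Junb, an AP-1 subunit (chr8:84974484-84978718), had 19.5, 21.6 and 21.9 CPM at 24 h, against 34.8, 48.6 and 39.7 CPM at 18 h. Each 24 h library lay below each 18 h library, with a log2 fold change of -0.96 ± 0.18 (edgeR adjusted p = 0.0117). Nab2 (chr10:127660918-127668568) had 6.90, 4.90 and 5.52 CPM at 24 h, against 15.8, 12.6 and 14.6 CPM at 18 h, a log2 fold change of -1.31 ± 0.22 (edgeR adjusted p = 0.00593). Unlike Egr1, Zfp36 and Junb, Nab2 had a mean at 6 h close to that at 18 h: it averaged 11.9 CPM at 0 h, 14.2 at 6 h, 8.18 at 12 h, 14.3 at 18 h and 5.77 at 24 h. Exons of Nab2 overlap those of Stat6, Nemp1 and Gm16229 on the opposite strand, and exons of Junb those of Prdx2. Of the 22 called genes, 8 have such an overlap (Ankrd37, Nab2, Bnip3, Zfp36, Plk1, Junb, Mt2 and Tiparp). No source used here gives the strand setting of the counting, so reads of such pairs may not be told apart.

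Among the members that did not pass, Fos, the AP-1 partner of Junb, had 0.613, 0.474 and 0.212 CPM at 24 h, against 2.11, 2.71 and 3.13 CPM at 18 h. These are few counts, and the log2 fold change of -2.50 ± 0.57 missed the threshold (edgeR adjusted p = 0.0652, or 0.00855 in the fit of the 6 libraries). Dusp2, a MAP kinase phosphatase of activated lymphocytes, averaged 110.2 ± 5.06 CPM at 24 h and 145 ± 4.5 CPM at 18 h (SD, n = 3 each; edgeR adjusted p = 0.187, or 0.00437 in the fit of the 6 libraries). The related ERK phosphatase Dusp6 ran the other way, with 26.7, 26.2 and 21.01 CPM at 24 h, against 16.4, 16.3 and 12.5 CPM at 18 h (log2 fold change 0.73 ± 0.19, edgeR adjusted p = 0.165, or 0.00807 in the fit of the 6 libraries). Myc, also an immediate early gene, averaged 39.6 CPM at 24 h and 34.3 CPM at 18 h with overlapping libraries (edgeR adjusted p = 0.724). Fos, Dusp2, Dusp6, Myc and the other members named in the text without a call were picked after their values were seen, except where a rule is stated.

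Of the 20 falls, 5 were in genes grouped here as hypoxia-responsive. The group was put together from the called genes, so its size is a description only. Ankrd37 and Bnip3 fell at 24 h to 0.219 and 0.41 of their 18 h means, Pdk1 and Ddit4 to 0.622 and 0.64, and Kdm3a, which was not on the list, to 0.575. Of 28 listed genes of glycolysis and hypoxia, 27 were tested, 4 fell, none rose and 23 did not pass. Among all tested genes, 0.147% fell and 0.0147% rose. Of the 27 genes, 24 had a log2 fold change below 0 and 3 above, with a median of -0.34. In 14 of them all 24 h libraries lay below all 18 h libraries, or 14 of 27 beside 9.57% of all tested genes. The fit of the 6 libraries alone called 14 of 26 tested members lower and none higher, beside 1.72% of all genes lower. The fit without library 1 at 6 h called 8 of 27 lower, beside 0.340% of all genes.

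The promoters of Ankrd37, Bnip3 and Pdk1 are shown because HIF factors act through a short core sequence, searched here as ACGTG or GCGTG on both strands, with overlapping matches counted apart. Each runs 5′ to 3′ over the same 300-base window around the RefSeq start on GRCm38.p6, with matches in capitals: chr8:45999801-46000100 on the minus strand for Ankrd37, chr7:138909457-138909756 on the minus strand for Bnip3 and chr2:71872974-71873273 on the plus strand for Pdk1.
Ankrd37: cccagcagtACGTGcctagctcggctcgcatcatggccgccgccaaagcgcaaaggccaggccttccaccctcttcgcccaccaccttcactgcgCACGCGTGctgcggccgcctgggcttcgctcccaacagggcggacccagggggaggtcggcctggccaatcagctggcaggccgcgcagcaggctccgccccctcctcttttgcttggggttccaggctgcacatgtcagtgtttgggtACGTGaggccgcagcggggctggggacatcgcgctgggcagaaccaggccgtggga
Bnip3: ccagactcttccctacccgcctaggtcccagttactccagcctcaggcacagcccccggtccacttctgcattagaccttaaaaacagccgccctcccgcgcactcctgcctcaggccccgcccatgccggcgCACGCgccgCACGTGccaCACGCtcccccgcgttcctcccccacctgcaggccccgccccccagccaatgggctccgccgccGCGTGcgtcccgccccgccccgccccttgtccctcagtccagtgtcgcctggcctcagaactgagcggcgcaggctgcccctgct
Pdk1: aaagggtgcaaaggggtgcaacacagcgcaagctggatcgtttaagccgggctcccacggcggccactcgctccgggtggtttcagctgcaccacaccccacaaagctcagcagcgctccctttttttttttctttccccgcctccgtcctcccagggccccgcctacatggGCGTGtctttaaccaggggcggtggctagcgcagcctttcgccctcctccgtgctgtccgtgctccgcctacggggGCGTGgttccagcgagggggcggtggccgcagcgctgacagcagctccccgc
Ankrd37 held 4 matches, Bnip3 5 and Pdk1 2, and Ddit4 and Kdm3a held the core too, so that it was present in 5 of 5 of these genes. The core is short and common, with at least 1 match in 43.8% of 32851 mouse promoters of that length, and it was also present in 16 of the 17 called genes with a promoter entry. It was therefore not particular to the hypoxia-responsive genes.

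Ankrd37, a small ankyrin repeat protein and a well-known HIF target (chr8:45996902-46005707), had 3.53, 2.21 and 2.55 CPM at 24 h, against 11.6, 17.01 and 9.22 CPM at 18 h. The log2 fold change was -2.15 ± 0.36 (edgeR adjusted p = 0.00593). Bnip3, a mitophagy receptor of the outer mitochondrial membrane (chr7:138890836-138909519), had 8.89, 10.1 and 10.4 CPM at 24 h, against 22.5, 32.8 and 16.3 CPM at 18 h, a log2 fold change of -1.27 ± 0.22 (edgeR adjusted p = 0.00593). In both genes the 24 h libraries lay close together and the 18 h libraries were spread, with library 2 highest and library 3 lowest. Exons of Ankrd37 overlap those of Ufsp2 and Lrp2bp on the opposite strand.

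Pdk1 (chr2:71873224-71903858) encodes pyruvate dehydrogenase kinase 1, which keeps pyruvate out of the mitochondrial citric acid cycle. It had 54.1, 58.9 and 54.3 CPM at 24 h, against 92.7, 102 and 74.4 CPM at 18 h (log2 fold change -0.68 ± 0.12, edgeR adjusted p = 0.00783). Ddit4 (chr10:59949669-59951834), or REDD1, an inhibitor of mTORC1 that hypoxia and other stresses induce, had 48.9, 48.5 and 42.9 CPM at 24 h, against 74.6, 81.6 and 63.0 CPM at 18 h (log2 fold change -0.64 ± 0.12, edgeR adjusted p = 0.0112). Kdm3a, a histone H3 lysine demethylase and HIF target (chr6:71588972-71632990), had 30.5, 31.9 and 26.1 CPM at 24 h, against 56.0, 49.8 and 48.2 CPM at 18 h (log2 fold change -0.79 ± 0.14, edgeR adjusted p = 0.0112). None of these groups overlapped.

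Bnip3, Ankrd37 and Pdk1 had higher means at 12 h and 18 h than at 0, 6 and 24 h. Bnip3 averaged 9.21 CPM at 0 h, 9.97 at 6 h, 37.7 at 12 h, 23.9 at 18 h and 9.80 at 24 h. Ankrd37 averaged 3.26 CPM at 0 h, 4.37 at 6 h, 13.9 at 12 h, 12.6 at 18 h and 2.76 at 24 h. Pdk1 averaged 50.9 CPM at 0 h, 54.2 at 6 h, 93.2 at 12 h, 89.7 at 18 h and 55.8 at 24 h. Bnip3, Ankrd37, Pdk1 and Ddit4 were not called at 24 h against 0 h (edgeR adjusted p from 0.484 to 0.891). Kdm3a averaged 45.0 CPM at 0 h, 40.4 at 6 h, 48.9 at 12 h, 51.3 at 18 h and 29.5 at 24 h, and it was called lower at 24 h than at 0 h.

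No gene of a glycolytic enzyme passed with all 15 libraries, but 7 listed ones (Aldoa, Tpi1, Eno1, Gpi1, Ldha, Pkm and Pgk1) were called lower in the fit of the 6 libraries alone. Aldoa, aldolase A, came closest, with 259, 244 and 260 CPM at 24 h, against 409, 478 and 307 CPM at 18 h (log2 fold change -0.64 ± 0.14, edgeR adjusted p = 0.0531), and it passed with DESeq2 (adjusted p = 0.00892) and in the fit of the 6 libraries (edgeR adjusted p = 0.00016). Triose phosphate isomerase, Tpi1, averaged 55.4 ± 5.41 CPM at 24 h and 78.6 ± 7.98 CPM at 18 h (SD, n = 3 each; edgeR adjusted p = 0.23, or 0.0032 in the fit of the 6 libraries). The glucose transporter gene Slc2a1 averaged 13.5 ± 0.145 CPM at 24 h and 20.2 ± 3.62 CPM at 18 h (SD, n = 3 each; edgeR adjusted p = 0.37). Vegfa, another HIF target, averaged 23.5 CPM at 24 h and 24.9 CPM at 18 h with overlapping libraries (edgeR adjusted p = 0.916). Gapdh, whose many processed copies make its count uncertain, averaged 10.5 CPM at 24 h and 8.76 CPM at 18 h (edgeR adjusted p = 0.735). Library 3 at 18 h was the lowest of its time in 20 of the 27 members, and it was also the one without which the count of called genes was highest, at 27. Aldoa and Tpi1, unlike Bnip3, remained above 0 h at 24 h, with log2 fold changes of 0.62 ± 0.15 (edgeR adjusted p = 0.00386) and 0.91 ± 0.16 (edgeR adjusted p = 0.000247).

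**Figure D2:**
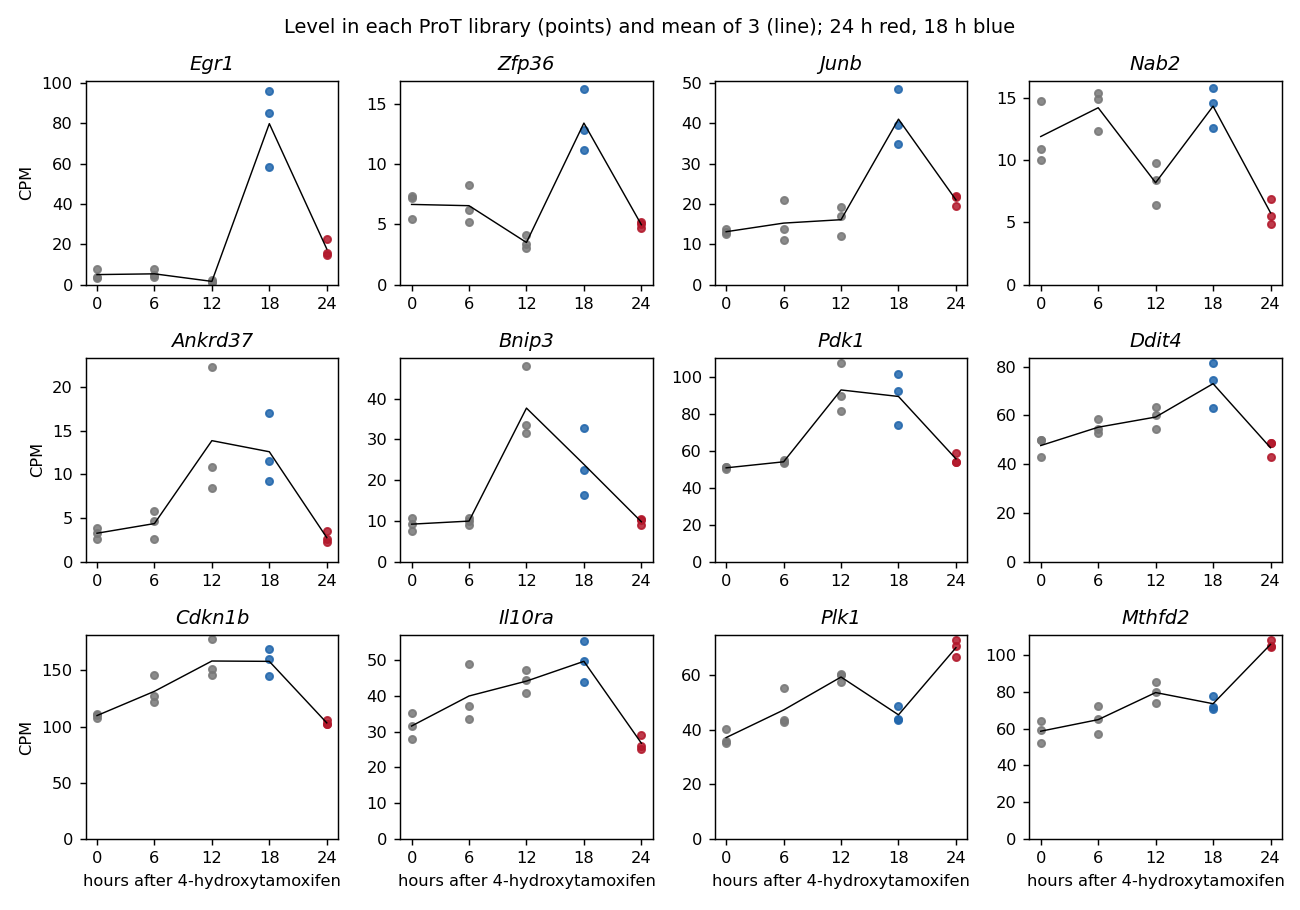
Level in CPM (vertical axes, from 0) of 12 called genes in each ProT library at 0, 6, 12, 18 and 24 h after 4-hydroxytamoxifen (horizontal axes); points are libraries, the line joins means of 3, and 24 h is red and 18 h blue. Egr1, Zfp36 and Junb peak at 18 h, Ankrd37, Bnip3 and Pdk1 are high at 12 h and 18 h, and Plk1 and Mthfd2 are highest at 24 h.

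Cdkn1b and Bcl2l11, genes of cell cycle arrest and of cell death, fell at 24 h. Cdkn1b (chr6:134920401-134925513) encodes p27, an inhibitor of cyclin-dependent kinases that FOXO factors induce and AKT signalling restrains. It had 102, 102 and 106 CPM at 24 h, against 161, 169 and 145 CPM at 18 h. The 24 h libraries were tightly grouped below all 18 h libraries, with a log2 fold change of -0.61 ± 0.11 (edgeR adjusted p = 0.00783). Cdkn1b averaged 109.8 CPM at 0 h, 131 at 6 h, 158 at 12 h, 158 at 18 h and 103 at 24 h, and was not called against 0 h (edgeR adjusted p = 0.61). Bcl2l11 (chr2:128126038-128162547) encodes BIM, the BH3-only protein that kills lymphocytes deprived of cytokine. It had 72.1, 79.0 and 70.7 CPM at 24 h, against 121.8, 125 and 102 CPM at 18 h (log2 fold change -0.65 ± 0.12, edgeR adjusted p = 0.0117). Both calls were lost in 5 of the 6 fits that left out 1 library, with edgeR adjusted p up to 0.161 for Cdkn1b and 0.169 for Bcl2l11, and with library totals only.

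Of 26 listed genes of quiescence and egress, 24 were tested. Of these, 1 fell (Cdkn1b), beside 0.147% of all tested genes, none rose and 23 did not pass. The median log2 fold change was -0.31, with 21 genes below 0 and 3 above, and in 16 of 24 all 24 h libraries lay below all 18 h libraries, beside 9.57% of all tested genes. The fit of the 6 libraries alone called 8 of the 24 lower, beside 1.72% of all genes. S1pr1, the receptor that draws T cells out of the thymus, had 8.13, 7.43 and 7.22 CPM at 24 h, against 14.8, 18.0 and 11.8 CPM at 18 h (log2 fold change -0.95 ± 0.24, edgeR adjusted p = 0.124, or 0.00855 in the fit of the 6 libraries). Klf2, which drives S1pr1 in T cells, averaged 33.1 CPM at 24 h and 41.8 CPM at 18 h (edgeR adjusted p = 0.389), and the cyclin G2 gene Ccng2 25.5 CPM at 24 h and 37.7 CPM at 18 h (edgeR adjusted p = 0.329). The mRNAs of the FOXO factors themselves overlapped between the times: Foxo1 averaged 15.2 CPM at 24 h and 16.3 CPM at 18 h, and Foxo3 42.0 CPM at 24 h and 43.6 CPM at 18 h.

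Among 12 tested genes of the BCL2 family, Bcl2l11 alone was called, beside 0.162% of all tested genes. The list's median log2 fold change was 0.050. The pro-survival gene Mcl1 averaged 106 CPM at 24 h and 126 CPM at 18 h (edgeR adjusted p = 0.486). Among 15 tested D cyclins and CDK inhibitors, Cdkn1b alone was called, beside 0.162% of all tested genes, and the median was 0.11. Ccnd3, the D cyclin of early thymocytes, averaged 174 ± 6.30 CPM at 24 h and 133 ± 10.5 CPM at 18 h (SD, n = 3 each; edgeR adjusted p = 0.241, or 0.00855 in the fit of the 6 libraries). That fit called 1 of the 15 listed D cyclins and CDK inhibitors higher and 2 lower, beside 0.909% and 1.72% of all genes. Among 24 tested PI3K/AKT components only the symbol Pdk1 was called. That symbol belongs to pyruvate dehydrogenase kinase 1, described above, and not to the PI3K pathway kinase, which is named Pdpk1, so no component of the pathway itself was called.

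Klhl24, Pde4b, Crebrf and Upp1 also fell, and they are named here after their values were seen. The calls of Klhl24, Crebrf and Upp1 passed in 1 of the 6 fits that left out 1 library, and that of Pde4b in 2. None of them passed with library totals only. Klhl24, an adaptor of a CUL3 ubiquitin ligase, had 50.1, 50.9 and 44.8 CPM at 24 h, against 76.1, 74.5 and 68.5 CPM at 18 h (log2 fold change -0.58 ± 0.11, edgeR adjusted p = 0.0126). Pde4b, a phosphodiesterase that degrades cyclic AMP, had 58.3, 66.2 and 58.2 CPM at 24 h, against 99.9, 99.1 and 78.8 CPM at 18 h (log2 fold change -0.60 ± 0.11, edgeR adjusted p = 0.0126). Crebrf, which promotes the breakdown of the stress factor CREB3, averaged 59.3 ± 4.91 CPM at 24 h and 87.6 ± 6.61 CPM at 18 h (SD, n = 3 each; log2 fold change -0.56 ± 0.11, edgeR adjusted p = 0.0198). Klhl24, Pde4b and Crebrf had lower means at 12 h and 24 h than at 6 h and 18 h: Crebrf averaged 81.0 CPM at 0 h, 88.8 at 6 h, 58.8 at 12 h, 87.6 at 18 h and 59.3 at 24 h. Upp1, a uridine phosphorylase, averaged 11.1 CPM at 0 h, 12.6 at 6 h, 27.0 at 12 h, 28.9 at 18 h and 17.3 at 24 h (24 h against 18 h, log2 fold change -0.73 ± 0.15, edgeR adjusted p = 0.0336).

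Il10ra, Cysltr1 and Gp49a, which encode receptors of the cell surface, fell at 24 h. Il10ra, the ligand-binding chain of the interleukin-10 receptor (chr9:45253837-45269149), had 25.1, 29.1 and 26.1 CPM at 24 h, against 43.8, 55.5 and 49.7 CPM at 18 h. The groups were well apart, and the adjusted p was the smallest after that of Egr1 (log2 fold change -0.89 ± 0.14, edgeR adjusted p = 0.00443). Il10ra averaged 31.6 CPM at 0 h, 40.0 at 6 h, 44.1 at 12 h, 49.7 at 18 h and 26.8 at 24 h. Of 20 tested genes of cytokine receptors and the STAT5 axis, Il10ra alone was called, beside 0.162% of all tested genes. The list's median log2 fold change was -0.13. In the fit of the 6 libraries alone, 1 of 19 members was called higher and 2 lower, beside 0.909% and 1.72% of all genes. Pim2, a kinase gene induced by STAT5, had 4.29, 4.58 and 4.67 CPM at 24 h, against 7.80, 10.8 and 10.4 CPM at 18 h, and missed the threshold (log2 fold change -1.10 ± 0.28, edgeR adjusted p = 0.147, or 0.0125 in the fit of the 6 libraries). The interleukin-7 receptor gene Il7r averaged 30.3 CPM at 24 h and 38.05 CPM at 18 h (edgeR adjusted p = 0.487).

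Cysltr1, a receptor for cysteinyl leukotrienes, had 10.7, 9.16 and 9.76 CPM at 24 h, against 20.4, 20.0 and 17.04 CPM at 18 h (log2 fold change -0.95 ± 0.19, edgeR adjusted p = 0.0158). Gp49a, an immunoglobulin-like receptor known from mouse mast and myeloid cells, had 8.13, 11.1 and 8.70 CPM at 24 h, against 19.6, 21.7 and 17.6 CPM at 18 h (log2 fold change -1.06 ± 0.21, edgeR adjusted p = 0.0158). Its neighbour in sequence Lilrb4 had 11.5, 19.4 and 16.8 CPM at 24 h, against 25.1, 30.1 and 21.6 CPM at 18 h (log2 fold change -0.68 ± 0.19, edgeR adjusted p = 0.212). Because these genes are nearly identical and the Gp49a identifier was not found in GENCODE M21, the split of reads between them is uncertain. None of the myeloid markers was called, and their summed ranges, given above, overlapped. Summed megakaryocyte and mast cell markers came to 475 to 506 CPM at 24 h and 504 to 549 CPM at 18 h, ranges that barely overlap, with none of the 3 tested called. That sum came mostly from Cpa3 (2018 to 3015 counts at 24 h). The part of these markers in the Gp49a result was not tested.

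Stress and xenobiotic genes made up the remaining falls. Mt2, a metallothionein that binds zinc and copper, had 30.2, 34.1 and 35.7 CPM at 24 h, against 70.4, 85.6 and 41.7 CPM at 18 h (log2 fold change -0.97 ± 0.18, edgeR adjusted p = 0.0119). The 18 h libraries were spread, with library 3 near the 24 h values. The similar gene Mt1 had 118.8, 122.1 and 124.6 CPM at 24 h, against 178, 212 and 137 CPM at 18 h, the same order of libraries, and did not pass (log2 fold change -0.53 ± 0.13, edgeR adjusted p = 0.0956), though it did with DESeq2 (adjusted p = 0.0437). Tiparp, a mono-ADP-ribosyltransferase that limits aryl hydrocarbon receptor signalling, had 24.2, 24.3 and 25.7 CPM at 24 h, against 41.5, 55.7 and 34.6 CPM at 18 h (log2 fold change -0.82 ± 0.16, edgeR adjusted p = 0.0128). Tiparp at 24 h was also below 0 h (log2 fold change -0.82 ± 0.16, edgeR adjusted p = 0.000886).

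The genes that rose act in cell division and in one-carbon metabolism. Plk1, the kinase that drives entry into and progress through mitosis (chr7:122159439-122169873), had 70.8, 66.7 and 72.8 CPM at 24 h, against 48.9, 43.9 and 43.6 CPM at 18 h. The groups did not overlap, with a log2 fold change of 0.62 ± 0.12 (edgeR adjusted p = 0.0112). The call was lost in 4 of the 6 fits that left out 1 library and with library totals only. Plk1 averaged 37.1 CPM at 0 h, 47.3 at 6 h, 59.3 at 12 h, 45.5 at 18 h and 70.1 at 24 h. Mthfd2, the mitochondrial folate enzyme that supplies one-carbon units for nucleotide synthesis (chr6:83305691-83325908), had 108, 104 and 105 CPM at 24 h, against 70.8, 71.7 and 77.9 CPM at 18 h. Its log2 fold change was 0.52 ± 0.11 (edgeR adjusted p = 0.0334), but the call was lost in every fit that left out 1 of these 6 libraries.

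Most other cell cycle genes had log2 fold changes above 0 and did not pass. Of 24 genes of mitosis, all tested, Plk1 rose, beside 0.0147% of all tested genes, and 23 did not pass. Yet all 24 had a log2 fold change above 0, and the median was 0.31. All 24 h libraries lay above all 18 h libraries in 19 of the 24, beside 10.2% of all tested genes. Aurka, the aurora kinase that activates Plk1, had 26.2, 20.9 and 21.2 CPM at 24 h, against 15.6, 13.8 and 17.04 CPM at 18 h (log2 fold change 0.55 ± 0.17, edgeR adjusted p = 0.286). The fit of the 6 libraries alone called 10 of the 24 higher, beside 0.909% of all genes tested in it. The proliferation marker Mki67 averaged 267 CPM at 24 h and 232 CPM at 18 h (edgeR adjusted p = 0.556).

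None of 27 tested genes of DNA replication was called, and at an unadjusted p of 0.05 there were 15 higher and none lower, beside 4.17% and 4.81% of all tested genes. Of these 27, 25 had a log2 fold change above 0, with a median of 0.28, and in 17 all 24 h libraries lay above all 18 h libraries, beside 10.2% of all tested genes. Cdc6, which loads the MCM helicase onto origins, had 42.6, 41.4 and 41.0 CPM at 24 h, against 27.8, 30.1 and 33.6 CPM at 18 h (log2 fold change 0.45 ± 0.14, edgeR adjusted p = 0.3). Mcm2, a subunit of that helicase, averaged 72.3 ± 4.07 CPM at 24 h and 53.8 ± 7.09 CPM at 18 h (SD, n = 3 each; edgeR adjusted p = 0.341). The fit of the 6 libraries alone called 8 of the 27 higher, beside 0.909% of all genes.

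Of 26 tested ATF4 and amino acid genes, Mthfd2 rose and Ddit4 fell, beside 0.0147% and 0.147% of all tested genes, and 24 did not pass. Of the 26, 22 were above 0 and 4 below, with a median of 0.22. The fit of the 6 libraries alone called 5 of the 26 higher and 1 lower, beside 0.909% and 1.72% of all genes. Psat1, an enzyme of serine synthesis, averaged 94.7 CPM at 24 h and 71.6 CPM at 18 h (edgeR adjusted p = 0.303), and Shmt2, the mitochondrial partner of Mthfd2 in folate metabolism, 81.6 CPM at 24 h and 62.0 CPM at 18 h (edgeR adjusted p = 0.32). None of 24 tested genes of MYC and nucleolar biogenesis was called, with 5 higher and none lower at an unadjusted p of 0.05, beside 4.17% and 4.81% of all tested genes. All 24 had a log2 fold change above 0, from 0.10 to 0.61, with a median of 0.22. In the fit of the 6 libraries alone, 2 of the 24 were called higher, beside 0.909% of all genes. Rcl1, which acts in the processing of ribosomal RNA, had 93.1, 88.8 and 83.6 CPM at 24 h, against 67.2, 62.1 and 67.3 CPM at 18 h (log2 fold change 0.43 ± 0.13, edgeR adjusted p = 0.262).

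**Figure D3:**
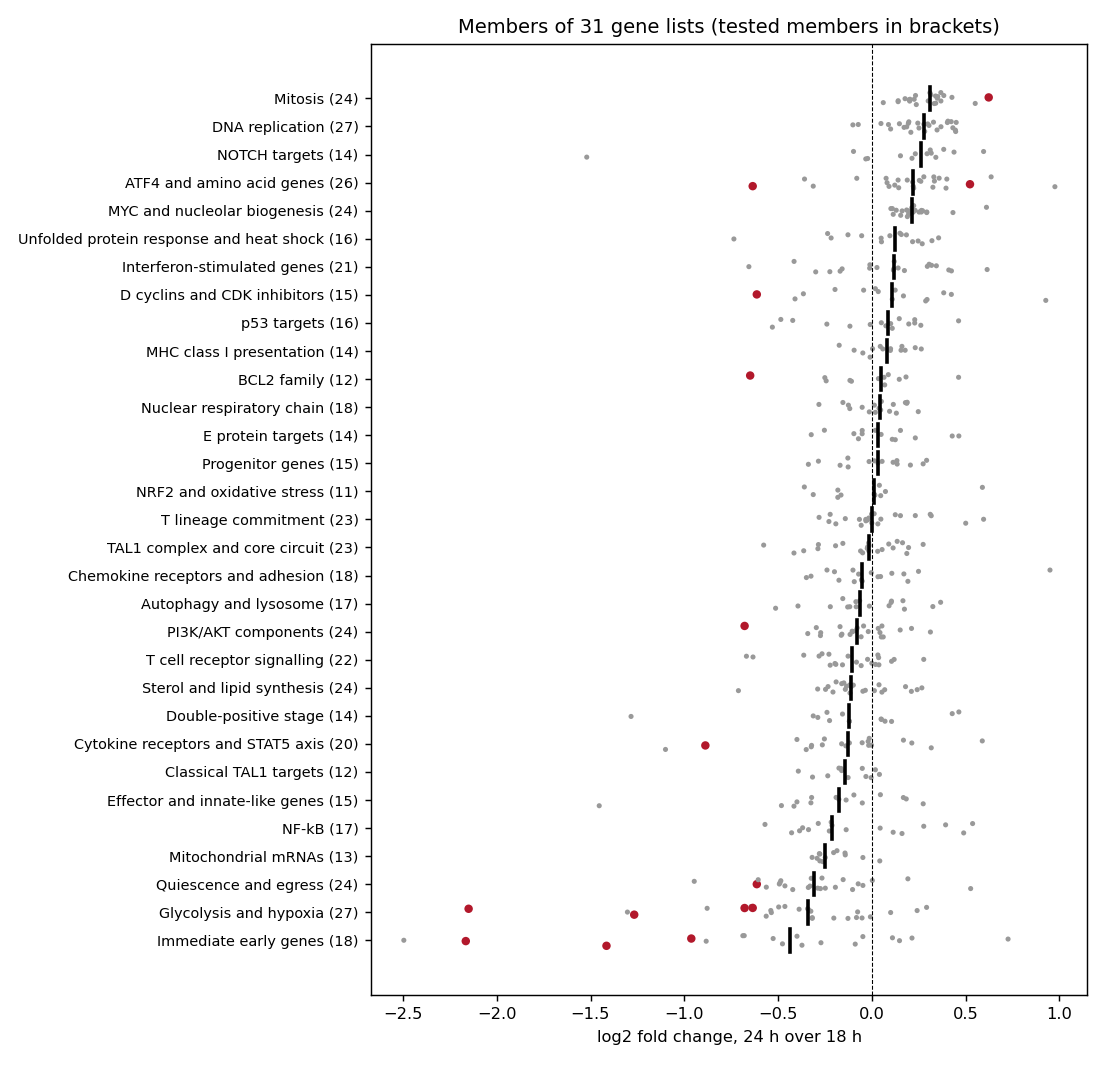
Log2 fold change, 24 h over 18 h (horizontal axis), of the tested members of 31 gene lists (one line of points each, number tested in brackets), with the list median as a black bar and called genes in red. Mitosis and DNA replication have the highest medians, 0.31 and 0.28, and immediate early genes the lowest, -0.44.

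Of 23 tested genes of the TAL1 complex and its core circuit none was called with all 15 libraries, with a median log2 fold change of -0.017. At an unadjusted p of 0.05, 1 gene was higher and 2 were lower, beside 4.17% and 4.81% of all tested genes. Ssbp2, a partner of LDB1 in the complex, had 36.2, 34.9 and 28.9 CPM at 24 h, against 41.1, 57.9 and 51.1 CPM at 18 h (log2 fold change -0.58 ± 0.14, edgeR adjusted p = 0.124). The fit of the 6 libraries alone called 2 of the 23 lower, beside 1.72% of all genes, Ssbp2 among them (edgeR adjusted p = 0.00559). Of 12 tested classical TAL1 targets none was called, with a median of -0.14. Of these 12, 2 were lower at an unadjusted p of 0.05, beside 4.81% of all tested genes. E protein targets, T lineage commitment, progenitor genes and double-positive stage genes had no call with all 15 libraries either, with medians of 0.034, -0.0010, 0.033 and -0.12. In the fit of the 6 libraries alone, 1 of 22 T lineage commitment genes was called higher, beside 0.909% of all genes. Among 14 tested NOTCH targets, also without a call, the median was 0.26, and the fit of the 6 libraries alone called 2 of 12 higher, beside 0.909% of all genes. Notch1 itself averaged 106 CPM at 24 h and 90.1 CPM at 18 h (edgeR adjusted p = 0.518).

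Of the T cell receptor signalling genes, 22 were tested and none was called with all 15 libraries. The fit of the 6 libraries alone called 2 of the 22 lower, beside 1.72% of all genes. The costimulatory receptor gene Cd28 had 22.1, 21.015 and 17.6 CPM at 24 h, against 32.2, 39.4 and 26.3 CPM at 18 h (log2 fold change -0.67 ± 0.16, edgeR adjusted p = 0.0804, or 0.00799 in the fit of the 6 libraries). Of 15 tested effector and innate-like genes none was called with all 15 libraries, and the fit of the 6 libraries alone called 4 lower, beside 1.72% of all genes. Rora, a nuclear receptor of that list, averaged 80.5 ± 2.30 CPM at 24 h and 113 ± 17.4 CPM at 18 h (SD, n = 3 each; edgeR adjusted p = 0.0956). It passed in the fit of the 6 libraries (edgeR adjusted p = 0.00267) and with DESeq2 (adjusted p = 0.0345). All 13 mitochondrial mRNAs were tested without a call, 12 of them with a log2 fold change below 0 and a median of -0.25. The fit of the 6 libraries alone called 5 of the 13 lower, beside 1.72% of all genes. With all 15 libraries, the lists of p53 targets, interferon-stimulated genes, MHC class I presentation, NF-kB, chemokine receptors and adhesion, sterol and lipid synthesis, unfolded protein response and heat shock, NRF2 and oxidative stress, autophagy and lysosome, and nuclear respiratory chain had no call, with medians between -0.21 and 0.12. In the fit of the 6 libraries alone, 2 of 16 p53 targets were called lower, beside 1.72% of all genes. None of the other lists just named had more than 2 calls in that fit. Over the 31 lists together, with all 15 libraries, 12 of 513 tested genes were called, beside 22 of 13610 tested genes (0.162%). The lists were chosen with earlier results of these data known, so this count does not measure enrichment.

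The step just before, 18 h against 12 h, used the same 18 h libraries and is set beside the last step for each gene. In it 7 genes passed, all higher at 18 h (0.0514%): Egr1, Zfp36, Junb, Ier2, Dusp2, Cirbp and Crebrf. The difference between the steps, (24 h - 18 h) - (18 h - 12 h), was tested in its own contrast. It passed in 14 genes (0.103%), of which 13 were below 0 (0.0955%) and 1 above 0 (0.00735%). For Egr1 the log2 fold change was -2.17 in the last step and 5.59 in the step before, and the difference was -7.76 ± 0.39 (edgeR adjusted p = 6.08e-14). For Zfp36 the values were -1.41 in the last step and 1.94 in the step before (difference -3.36 ± 0.41, edgeR adjusted p = 4.49e-05), and for Junb -0.96 in the last step and 1.35 in the step before (difference -2.31 ± 0.31, edgeR adjusted p = 0.00015).

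Plk1 was the 1 gene with the opposite turn, with a log2 fold change of 0.62 in the last step and -0.39 ± 0.12 in the step before (difference 1.01 ± 0.20, edgeR adjusted p = 0.032). The hypoxia-responsive genes did not pass this test. Bnip3 had already a log2 fold change of -0.67 ± 0.19 in the step before, against -1.27 in the last step, and the steps did not differ at the threshold (difference -0.60 ± 0.35, edgeR adjusted p = 0.794). Ankrd37 had -0.13 ± 0.30 in the step before (difference -2.02 ± 0.55, edgeR adjusted p = 0.273), and Ddit4 0.30 ± 0.12 (difference -0.93 ± 0.20, edgeR adjusted p = 0.0567). Cdkn1b did not pass either (difference -0.61 ± 0.18, edgeR adjusted p = 0.361).

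**Figure D4:**
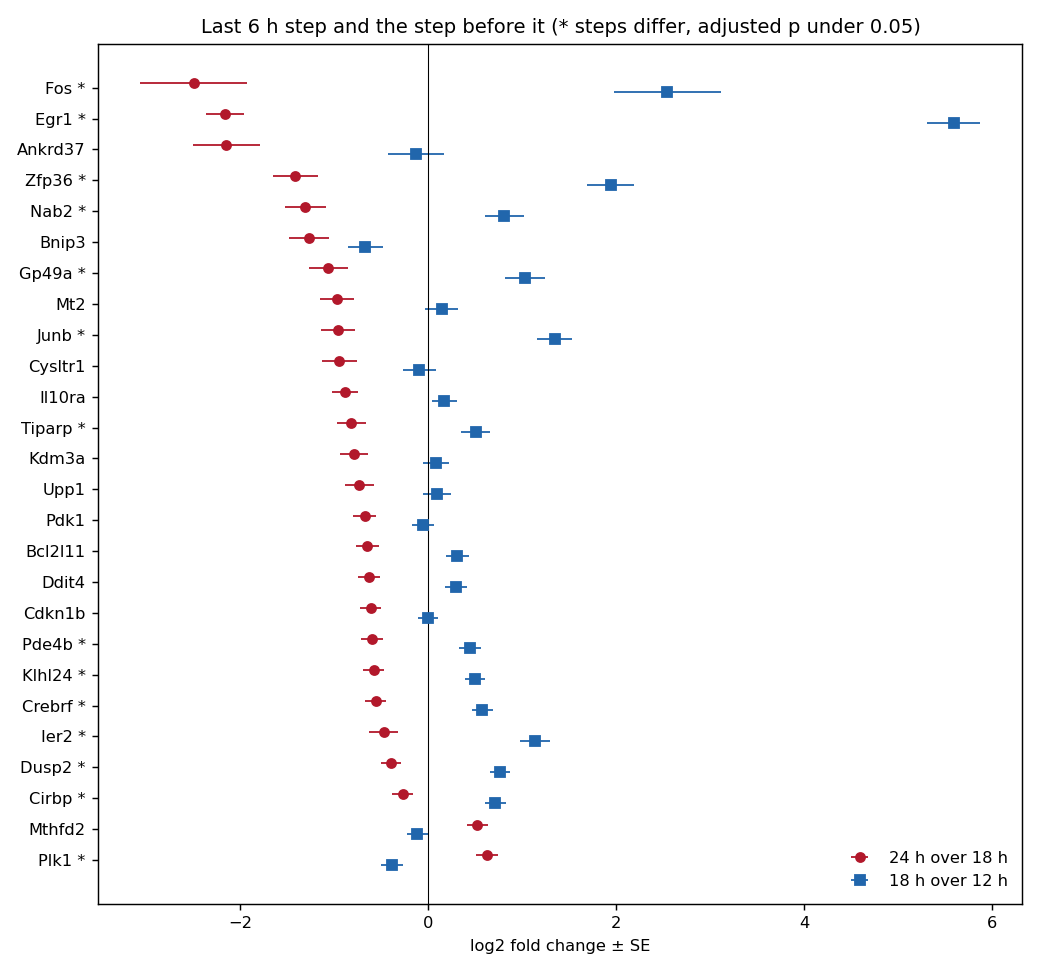
Log2 fold change ± SE (horizontal axis) of 26 genes in the last step, 24 h over 18 h (red circles), and in the step before it, 18 h over 12 h (blue squares), with a star where the steps differ at an edgeR adjusted p under 0.05. Egr1, Fos, Zfp36 and Junb lie far on opposite sides of 0 in the steps, while Ankrd37, Bnip3 and Pdk1 do not show a star.

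Measured against 0 h, the 22 genes ended in different places. Against 0 h, 2549 of 13610 genes were called at 24 h (18.7%), 1283 higher (9.43%) and 1266 lower (9.30%). Of the 22 genes, 10 were among them, 5 above 0 h (Egr1, Junb, Upp1, Plk1 and Mthfd2) and 5 below (Nab2, Kdm3a, Tiparp, Gp49a and Crebrf), and 12 were not called. Nab2 at 24 h was at a log2 fold change of -1.04 ± 0.24 against 0 h (edgeR adjusted p = 0.00279), and Plk1 at 0.91 ± 0.12 (edgeR adjusted p = 1.32e-05). Of the 20 genes that fell, 14 had their highest mean at 18 h, 5 at 12 h (Ankrd37, Bnip3, Cdkn1b, Pdk1 and Cysltr1) and 1 at 6 h (Crebrf). These genes were called for being higher at 18 h than at 24 h. The rule thus favours a peak at 18 h and excludes one at 24 h, so these counts are a description only.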

How the data were processed

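RNA sequencing counts of ProT cells were analysed at 24 h and 18 h after 4-hydroxytamoxifen, with 3 libraries at each time. The values deposited by the authors are raw gene counts. The submitters' processing notes list HTSeq, HISAT2, SAMtools and FastQC, and as builds GRCm38 and mm10; tool versions, strandedness of counting and gene annotation are not given in the sources used here. The table held 46078 genes. Its 5 HTSeq lines that name no gene entered neither library sizes nor tests. Reads in no feature came to 17.8% to 18.4% of the column total at 24 h and 17.3% to 19.7% at 18 h. Multiply aligned reads made up 13.5% to 14.4% at 24 h and 13.9% to 14.4% at 18 h. Date-like symbols of 27 genes were replaced by identifier, and 45143 identifiers were found in GENCODE M21, the source of gene positions.

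Counts were tested with edgeR 4.0.16 in R 4.3.3, with TMM scaling, filterByExpr, the quasi-likelihood F test and Benjamini-Hochberg adjustment over 13610 genes, two-sided, at 0.05. All 15 ProT libraries shared 1 estimate of the spread. SE is the absolute log2 fold change over the square root of F. CPM is counts over the total of tested genes times the TMM factor. The procedure was tested on simulated data with known changes. Alternatives were RLE factors, no scaling factors, no filter, a filter of at least 5 CPM in 3 libraries, DESeq2 1.42.0, a fit of only the times compared, a replicate block, and leaving out single libraries.

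The members and lists were chosen with earlier results of these data known. Genes were named by rule: Tal1; called genes with known symbols, at least 5 CPM at 18 h or 24 h and no overlap, up to 12 in each direction; up to 4 called members of each list; and members with the smallest p of lists without calls. The 31 lists held 586 genes, 61 of them in more than 1 list, of which 585 were in the table and 513 were tested. Promoters are from RefSeq.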

Additional observations from a re-analysis of the deposited data

Results flagged for a closer look

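In 14 genes the change over the last 6 h differed from the change over the 6 h before it. The value given for each is the log2 fold change of 24 h against 18 h minus that of 18 h against 12 h, with edgeR adjusted p. The steps share the 18 h libraries, so a peak or trough at 18 h enters both with opposite sign.

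Immediate early genes had a difference of -7.76 for Egr1 (adjusted p = 6.08e-14), -5.04 for Fos (0.0127), -3.36 for Zfp36 (4.49e-05), -2.31 for Junb (0.00015), -1.61 for Ier2 (0.00423) and -1.16 for Dusp2 (0.00216). For Nab2, the EGR co-repressor, it was -2.12 (adjusted p = 0.00546). Other genes below 0 were Gp49a at -2.09 (0.00427), Tiparp at -1.32 (0.0296), Crebrf at -1.13 (0.00427), Klhl24 at -1.08 (0.00584), Pde4b at -1.04 (0.0135) and the cold-inducible RNA-binding protein gene Cirbp at -0.986 (0.0192). Plk1 at 1.01 (0.032) was the 1 gene above 0. Of these, Fos, Dusp2, Ier2 and Cirbp were not called between 24 h and 18 h itself.

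Egr1, Zfp36, Junb and Dusp2 passed in each of the 17 alternatives run for this contrast. Plk1 passed in 9 of 17 and Tiparp in 10 of 17.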

How the results depend on the processing

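Of the genes with values in the text, 2 that were not called changed direction between 24 h and 18 h when 1 library was left out: Vegfa, with log2 fold changes from -0.139 to 0.0078 (above 0 without library 2 at 18 h), and Foxo3, from -0.136 to 0.0316 (above 0 without library 3 at 24 h). Over the single genes, 1089 values kept direction and side of the threshold, 106 were no longer past it and 58 were newly past it. Between 24 h and 18 h, where 22 genes were called, there were 6 with library totals only, 64 with no filter, 341 with only the 6 libraries fitted and 54 without library 1 at 6 h. RLE factors gave 22, the stricter filter 25 and DESeq2 31. Leaving out 1 library gave 1 to 27: 7, 2 and 27 without libraries 1, 2 and 3 at 18 h, and 3, 9 and 1 without libraries 1, 2 and 3 at 24 h. The 6 genes left with library totals only were Egr1, Ankrd37, Bnip3, Il10ra, Nab2 and Zfp36; the median of all genes then shifted to 0.044. Tal1 ranged from -0.11 to -0.19 and was never called (adjusted p from 0.298 to 0.911). Ccng2, Lilrb4, Mt1, Aurka, Cdc6, Mcm2, Psat1, Shmt2, Rcl1 and Ier2, not called with all 15 libraries, passed in the fit of the 6 libraries alone (edgeR adjusted p from 0.00201 to 0.0477). Slc2a1, Klf2, Mcl1 and Mki67 did not.

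For 18 h against 12 h (7 called) no filter gave 27, omitting library 1 at 6 h gave 15, and leaving out 1 library gave 6 to 14, with 14 without library 1 at 12 h. For the step difference (14 called) library totals only gave 8, no filter 30, omitting library 1 at 6 h 25, and leaving out 1 library 5 to 26. The extremes were 5 without library 2 and 6 without library 1 at 18 h, 9 without library 3 at 24 h, and 26 without library 3 at 12 h. The cause was not tested, beyond fewer or other libraries setting the spread.

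Deviations of same-numbered libraries at 24 h and 18 h correlated at -0.032, -0.013 and -0.0081, and those of differently numbered libraries at -0.025 to 0.036. The deviations are from means of only 3 libraries, so these values cannot exclude that a replicate number marks a shared culture or day. With the replicate number as a block, 29 genes were called between 24 h and 18 h (4 higher, 25 lower), 9 between 18 h and 12 h and 17 for the step difference. Genes under about 5 CPM, such as Fos, rest on few counts.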
